A study of Mus musculus with 4 samples.

Results

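The keratin genes were the protein-coding genes of the RefSeq table for mm10 (GRCm38.p6) whose symbol is Krt followed by a number, with or without a letter, and keratin-associated protein genes (Krtap) were left out. The rule found 53 of 21631 protein-coding genes: 27 on chromosome 11 (99232761 to 100269951), called here the type I cluster, and 26 on chromosome 15 (101348315 to 102032026), called here the type II cluster. Krt18 is a type I keratin by protein class but lies at the edge of the type II cluster and was counted there. The question was which keratin genes carried peaks of the chromatin recovered with the long noncoding RNA Malat1, and whether the clusters differed.

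Keratins are the intermediate filament proteins of epithelial cells. A filament is built from pairs of 1 acidic (type I) and 1 basic or neutral (type II) keratin, and the pair that a cell uses follows its lineage. In the mammary gland, Krt8, Krt18 and Krt19 are used as luminal markers and Krt5 and Krt14 as basal and myoepithelial markers, while many other members serve epidermis, mucosa and hair.

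The series used wild-type 4T1-TGL cells, a breast cancer line from the BALB/c strain, grown in DMEM/F12. In ChIRP, biotin-labelled oligonucleotides complementary to an RNA pull it out of sonicated nuclei, and the DNA that comes along is sequenced. The labels give 4 libraries, each alone in its group: Malat1 pull-downs with the Even and the Odd probe pool, one with LacZ probes as the usual non-targeting control, and the input of the Even sample. The file used here is 1 list of 77823 peaks from a merged treatment against input, and the identity of the merged pull-downs was not given in the sources used here. It holds no separate LacZ values, so no peak was compared with that control. Whether a peak is particular to the Malat1 probes was therefore not tested. The treatment held 851227 tags after duplicate removal and the input 50030325, 58.8 times as many. The Malat1 gene itself lay under the peak with the most tags of the list (2818 tags, fold enrichment 904). No expression was measured, so the epithelial identity of the cells was not checked against keratin RNA. No value below has a replicate, and all tests describe positions within this 1 list.

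A gene was counted as holding a summit (the highest point of a peak) when one lay inside it or at most 5 kb away. Of the 53 keratin genes, 32 (60.4%) held at least 1 summit, against 60.8% of all protein-coding genes. Keratin genes are short (median 7.07 kb), and among protein-coding genes of 3 to 15 kb the share was 47.7%; within the members' full length range, 2.81 to 50.6 kb, it was 58.2%. The clusters stood apart in this count. In the type II cluster 21 of 26 genes (80.8%) held a summit, and in the type I cluster 11 of 27 (40.7%). Genes of 3 to 15 kb within 20 Mb of each cluster, leaving out the keratins and a block of very dense peaks at 101 to 106 Mb of chromosome 11 (neighbouring 1 Mb bins of at least 2 times the median bin), gave 50.8% around the type II cluster and 53.6% around the type I cluster. Over the whole of chromosomes 15 and 11 genes of this length gave 63.9% and 48.9%. Grouped by protein class, with Krt18 moved, the counts were 12 of 28 type I and 20 of 25 type II genes. In gene bodies alone, 13 type II and 4 type I genes held a summit (50% and 14.8%), against 40.3% and 28.2% of genes of 3 to 15 kb on the same chromosomes. Neighbouring members share peaks, so these counts are not independent and were not tested against each other. Shared peaks were 6 of 29 in the type II and 1 of 12 in the type I cluster. With each peak given to its nearest gene only, 18 type II genes (69.2%) and 10 type I genes (37.0%) held a summit. Genes of 3 to 15 kb on chromosomes 15 and 11 then gave 54.2% and 38.9%.

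**Figure D1:**
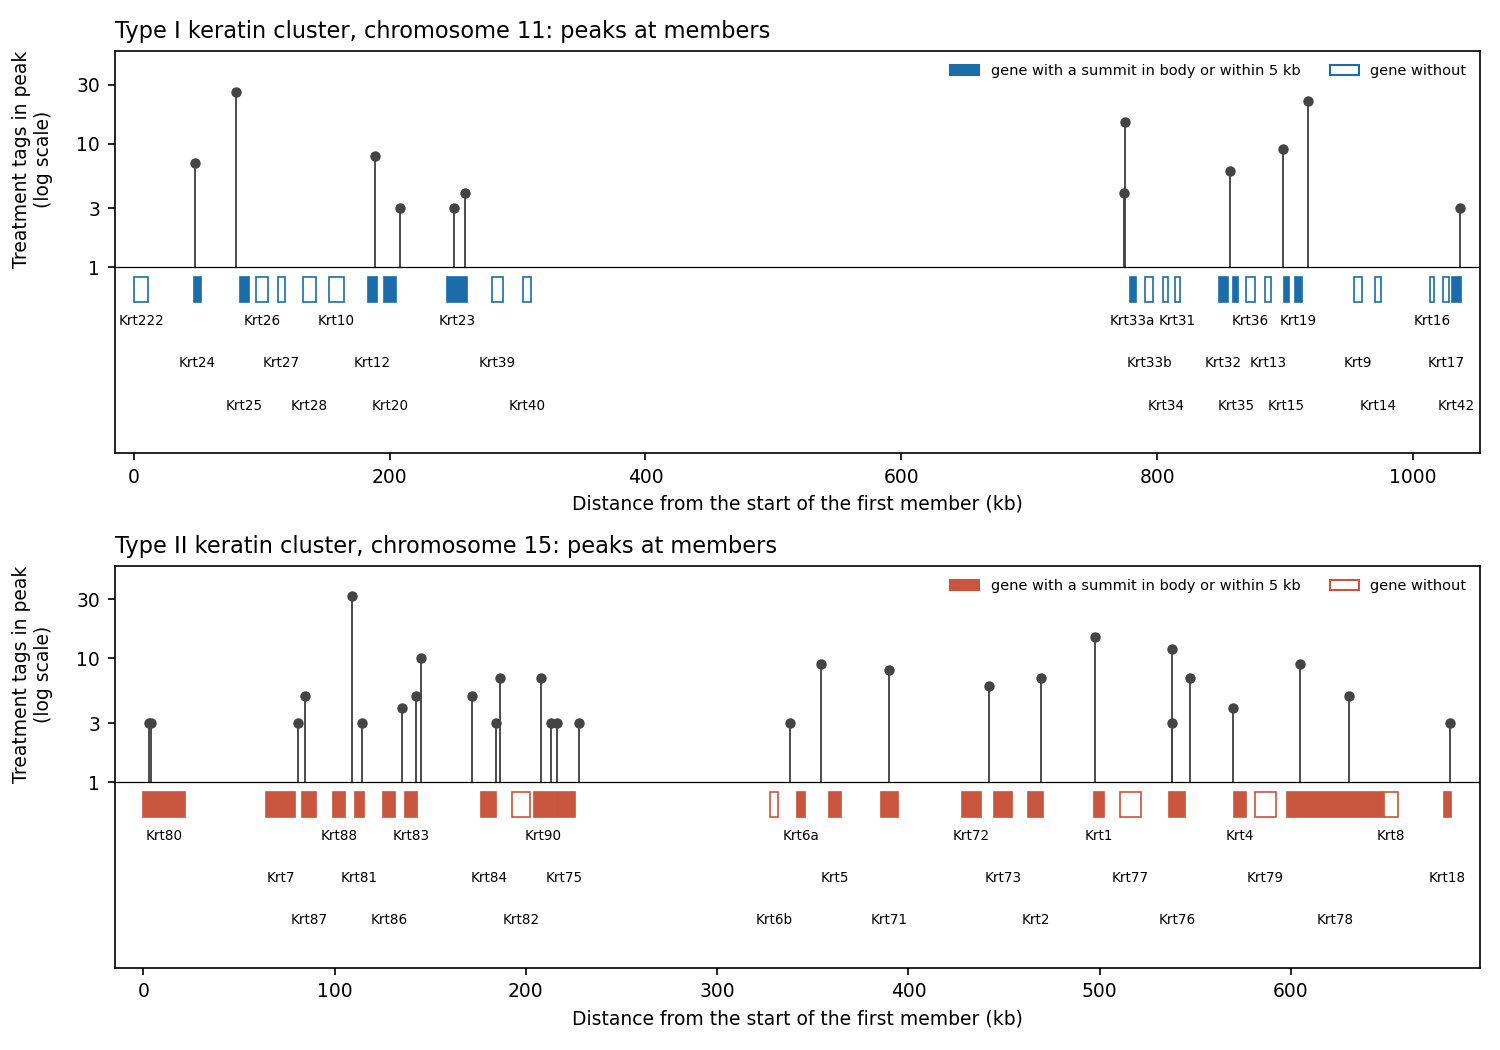
Peaks at keratin genes along the type I cluster (upper panel) and the type II cluster (lower panel). The x axis is the distance in kb from the start of the first member, each stem is 1 peak with its treatment tags on a log scale, and boxes are genes, filled where a summit lay inside the gene or at most 5 kb away. The 12 peaks of the type I cluster lie in 2 separated groups, and the 29 of the type II cluster are spread over most of its members.

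The 41 distinct peaks at keratin genes were short and mostly weak. They held 3 to 32 tags with a median of 5, the median of the whole list. Of them, 14 (34.1%) held 3 tags, the fewest of any peak, against 37.2% of the whole list. The fold enrichment, a value of the authors' peak caller, divides the pileup at the summit by a background level taken from the scaled input. At keratin peaks this level was never below the genome mean, so a lower local input would not be seen. Its median was 147 at keratin genes (67.2 to 598) and 133 in the whole list. At the genome mean input a height of 2 tags gives a fold of 119.7 and a height of 3 gives 179.5, so most of these folds rest on 2 or 3 overlapping tags. Of the 41 keratin peaks, 3 exceeded the 95th percentile of fold in the list, 399: those near Krt25, Krt19 and the Krt88 and Krt81 pair. These were also the only 3 with at least 20 tags. Of the 41 peaks, 22 had the summit inside a gene body, 5 of 12 in the type I and 17 of 29 in the type II cluster. This split was not tested or compared with the share of the sequence that gene bodies fill in each cluster.

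Start sites were known for 36 of the 53 genes (37 sites) from the RefSeq promoter table of GRCm38.p6, which gives 250 bases before and 50 after each start. None of the 37 promoter windows overlapped a peak, against 1.94% of all promoter windows, a share at which less than 1 overlap would be counted among 37. A summit lay within 1 kb of 4 of the 37 start sites (10.8%), against 7.66% of all start sites. All 4 lay downstream of the start: at Krt84 by 257 bases, at Krt2 by 582, at Krt42 by 780 and at Krt12 by 881. The promoters of these 4 genes, those nearest to a peak, are shown 5′ to 3′ on the gene's strand, with each TATAAA, read on either strand, in capitals. They lie on the minus strand at chr15:101532771-101533070, chr15:101818120-101818419, chr11:100269902-100270201 and chr11:99422210-99422509.
Krt84: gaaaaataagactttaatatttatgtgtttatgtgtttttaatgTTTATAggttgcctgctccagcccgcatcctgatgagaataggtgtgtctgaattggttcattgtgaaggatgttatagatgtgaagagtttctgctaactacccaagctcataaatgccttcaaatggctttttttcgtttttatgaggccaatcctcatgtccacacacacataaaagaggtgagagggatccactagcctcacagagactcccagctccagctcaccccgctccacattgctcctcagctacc
Krt2: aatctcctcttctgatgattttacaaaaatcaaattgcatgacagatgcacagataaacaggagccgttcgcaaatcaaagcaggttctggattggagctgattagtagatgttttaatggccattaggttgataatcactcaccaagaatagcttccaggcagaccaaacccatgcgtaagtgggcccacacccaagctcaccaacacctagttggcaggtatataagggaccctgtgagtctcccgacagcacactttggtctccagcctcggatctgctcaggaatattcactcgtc
Krt42: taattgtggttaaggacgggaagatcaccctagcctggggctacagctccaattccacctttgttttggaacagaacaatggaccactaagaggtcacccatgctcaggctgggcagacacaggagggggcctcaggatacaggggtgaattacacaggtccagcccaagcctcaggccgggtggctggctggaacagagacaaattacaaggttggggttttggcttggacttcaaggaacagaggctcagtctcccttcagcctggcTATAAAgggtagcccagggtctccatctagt
Krt12: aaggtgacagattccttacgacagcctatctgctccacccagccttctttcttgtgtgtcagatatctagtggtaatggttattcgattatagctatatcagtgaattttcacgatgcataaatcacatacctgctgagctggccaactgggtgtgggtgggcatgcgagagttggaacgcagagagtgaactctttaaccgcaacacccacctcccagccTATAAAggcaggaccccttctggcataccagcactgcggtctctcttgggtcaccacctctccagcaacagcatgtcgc

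The letters TATAAA stood on the gene's strand in the Krt12 promoter, with the first base 29 bases before the start, and in the Krt42 promoter, 19 bases after the annotated start. The match in the Krt84 promoter was on the opposite strand, and the Krt2 promoter had none. On the gene's strand the motif was present in 17 of 37 keratin promoters (45.9%), against 8.34% of 32619 promoters of the same length. It was in 13 of 21 type I windows and 4 of 16 type II windows. On either strand the keratin count was 19 (51.4%, against 13.7%). The AP-2 motif GCCNNNGGC, which reads the same on both strands, was in 7 of 37 (18.9%), against 16.7% of all promoters. A TATAAA match and an AP-2 match cannot share letters, and a match is a description of sequence only.

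The counts by role below come from groups of 3 to 15 genes and were not tested; the share among all protein-coding genes was 60.8%, and 47.7% at 3 to 15 kb, and nothing particular to a role is read from them. Among the keratins of simple epithelia, which line ducts and glands, 5 of 6 held a summit, all 3 on chromosome 11 and 2 of 3 on chromosome 15. The strongest peak belonged to Krt19, a luminal and progenitor keratin of the type I cluster. It lay at 100150669 to 100150928, 4885 bases outside the end of the gene with the higher coordinate, and held 22 tags at a fold of 525, rank 1588 of the list. Its implied input, the summit height divided by the fold and by the genome-wide mean background, was 1.03 times the genome mean. The other simple keratins had few tags. Krt20, of gut and urothelium, had 3 tags at a fold of 139, with the summit 2917 bases upstream of the start. Krt23 had 2 summits in its body, of 3 and 4 tags (fold 94.0 and 147). On chromosome 15, Krt7 had 1 summit of 3 tags at a fold of 71.5, lying 1628 bases beyond its end and also within 5 kb of Krt87. Krt18 had 1 of 3 tags at a fold of 76.5, inside the body. Krt8, the type II partner of Krt18 in luminal cells, held none, and the nearest summit was 17.9 kb away.

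The basal keratins of stratified and mammary epithelium held a summit at 2 of 3 genes. Krt5 had a peak of 9 tags and fold 177 (101702550 to 101702772), 4421 bases outside its body at the lower coordinate. Krt15, also a marker of hair bulge stem cells, had one of 9 tags and fold 202 with the summit 690 bases outside the gene. Krt14, the partner of Krt5, held none within 12.0 kb. Of the keratins induced in wounded or activated epidermis, Krt6a held 1 summit of 3 tags (fold 105), and Krt6b, Krt16 and Krt17 held none. Krt6a and Krt6b are close copies, and the handling of reads that fit more than 1 copy was not given in the sources used here. Their counts are uncertain for that reason, as are those of the hair keratins in runs of similar genes.

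Of the keratins of differentiating epidermis, 3 of 6 held a summit, all on chromosome 15. Krt1 had 15 tags at a fold of 272 (101845495 to 101845802), with the summit 259 bases inside the end of the gene with the lower coordinate. Krt76, a keratin of palate epithelium, held 3 summits of 12, 3 and 7 tags, the last with the highest fold, 251. Krt2 had 7 tags at a fold of 111 and the highest implied input at any keratin gene, 2.15. Krt10, the partner of Krt1, and Krt9, of palm and sole skin, held none, and neither did Krt77.

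Among mucosal and corneal keratins, 3 of 4 held a summit. Krt12, the type I keratin of cornea, had 8 tags at a fold of 277 inside its body, and Krt24 had 7 tags at a fold of 224. Krt4 had 4 tags at a fold of 67.2, the lowest at any keratin gene, and its partner Krt13 held none.

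Among the hair root sheath keratins 5 of 8 held a summit. On chromosome 15 all 4 (Krt71, Krt72, Krt73 and Krt75) held a summit. Krt71 led with 8 tags at a fold of 274, Krt72 and Krt73 shared 1 peak of 6 tags and fold 107, and Krt75 had 3 summits of 3 tags each. On chromosome 11, Krt25 alone of 4 did, and Krt26, Krt27 and Krt28 did not. Krt25 had the highest fold of any keratin gene, 598, with 26 tags (99312321 to 99312603, rank 926 of the list). Its implied input was 1.00, the lowest value at keratin peaks and also that of a Krt75 peak. This value equals the genome mean, so the local input itself may be lower at both. The Krt25 summit lay 3089 bases beyond the 3′ end of the gene. Hair shaft keratins gave 5 of 6 on chromosome 15 and 3 of 9 on chromosome 11. The peak with the most tags at any keratin gene, 32 at a fold of 432 (101457319 to 101457751), lay between Krt88 and the hair keratin Krt81 and counted for both. Krt83 had 3 summits of 4, 5 and 10 tags, the first shared with Krt86, and Krt84 had 3 of 5, 3 and 7 tags. Krt87 had a summit of 5 tags (fold 219.6) besides the one shared with Krt7, and Krt82 held none. On chromosome 11, Krt33a had 2 summits, the stronger of 15 tags and fold 222, and Krt32 and Krt35 shared 1 of 6 tags and fold 155. Krt31, Krt33b, Krt34, Krt36, Krt39 and Krt40 held none.

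Of the remaining 7 keratins, Krt42 (3 tags, fold 158), Krt80 (2 summits of 3 tags), Krt88, Krt90 (3 summits of 7, 3 and 3 tags, 2 of them shared with Krt75) and Krt78 (9 and 5 tags) held summits, and Krt222 and Krt79 did not. The gene table runs Krt78 over 50.6 kb up to Krt8, but its start site in the promoter table is 42.3 kb inside that span, so its second summit lay 24.6 kb upstream of the start. The 21 genes without a summit had the nearest one 5.80 to 46.5 kb away, farthest at Krt28. In the type I cluster they came in runs, Krt26 to Krt10 and Krt9 to Krt17 with 4 genes each and Krt33b to Krt31 with 3. In the type II cluster no 2 neighbours in chromosome order lacked one. At this depth a missing peak shows only that fewer tags were recovered than the caller needed.

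No keratin gene passed a test for more or fewer summits than its own surroundings. The summits within 5 kb were compared with those in the next 500 kb on each side (exact two-sided binomial test, Benjamini-Hochberg over 21283 protein-coding genes). None of the 53 passed at an adjusted p of 0.05, and none had an unadjusted p under 0.05. With 250 kb flanks the unadjusted p was under 0.05 at 2 genes (Krt33a and Krt76), and with 1 Mb flanks at 2 others (Krt83 and Krt84), none after adjustment. Among all genes 0.0376% passed as higher and 0.0141% as lower after adjustment, and 4.07% and 0.554% before it. The flanks predicted 0.435 to 2.85 summits per keratin gene. The lowest unadjusted exact binomial p was 0.057 at Krt83 (3 summits, 0.836 predicted, adjusted p = 1), followed by 0.060 at Krt76 (3 summits, 0.854 predicted). With so few predicted, 0 summits cannot pass: the p of the 21 empty genes lay between 0.63 and 1.

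Counted over whole spans, the type I cluster held fewer summits per Mb than its flanks, and the type II cluster did not pass the same test. The type I span of 1.04 Mb held 25 summits, 24.1 per Mb (95% Poisson interval 15.6 to 35.6, counting error only), and the type II span of 0.684 Mb held 35, or 51.2 per Mb (35.7 to 71.2). The 1 Mb on each side of the type I cluster held 45.5 per Mb, a ratio of 0.530 (0.326 to 0.832, exact binomial test adjusted over the 2 clusters, p = 0.0086). The distal flank enters the dense block of chromosome 11. Against the proximal flank alone, 44.0 per Mb, the ratio was 0.548 (exact binomial test, adjusted p = 0.032), and against 2 Mb on each side, which reaches farther into the block and held 77.2 per Mb, it was 0.312. Around the type II cluster the flanks held 39.0 per Mb, and the ratio of 1.31 (0.855 to 1.98) did not pass (exact binomial test, adjusted p = 0.19). Of windows of its length, 7.48% held more summits than their flanks at an unadjusted p under 0.05, and 7.80% held fewer. Summits are clumped, and the test takes them as independent. Of 2451 consecutive windows of the type I length over the genome, 9.10% held fewer summits than their flanks at an unadjusted p under 0.05. Another 9.06% held more at that threshold. Fewer summits with a p at or below that of the cluster were found in 3.92%. Among peaks of at least 5 tags the type I ratio was also 0.530, but it no longer passed (11 summits, exact binomial test, adjusted p = 0.15).

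Read against more of the chromosome, the type I span was denser than 30 of 115 other windows of its length on chromosome 11, and than 5 of the 33 within 20 Mb and outside the dense block. Chromosome 11 outside that block had 30.4 summits per Mb, within the interval of the cluster. The keratin genes themselves lay in 2 groups there. The proximal group from Krt222 to Krt40 held 29.0 summits per Mb and the distal group from Krt33a to Krt42 held 27.1, and the 468 kb between them, which holds the Krtap genes, 19.2 (8.79 to 36.5), so their intervals overlap. The type II span was denser than 27 of the 31 windows within 20 Mb, whose median was 36.6 per Mb, and than 72 of 150 on all of chromosome 15, which had 61.3 per Mb.

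**Figure D2:**
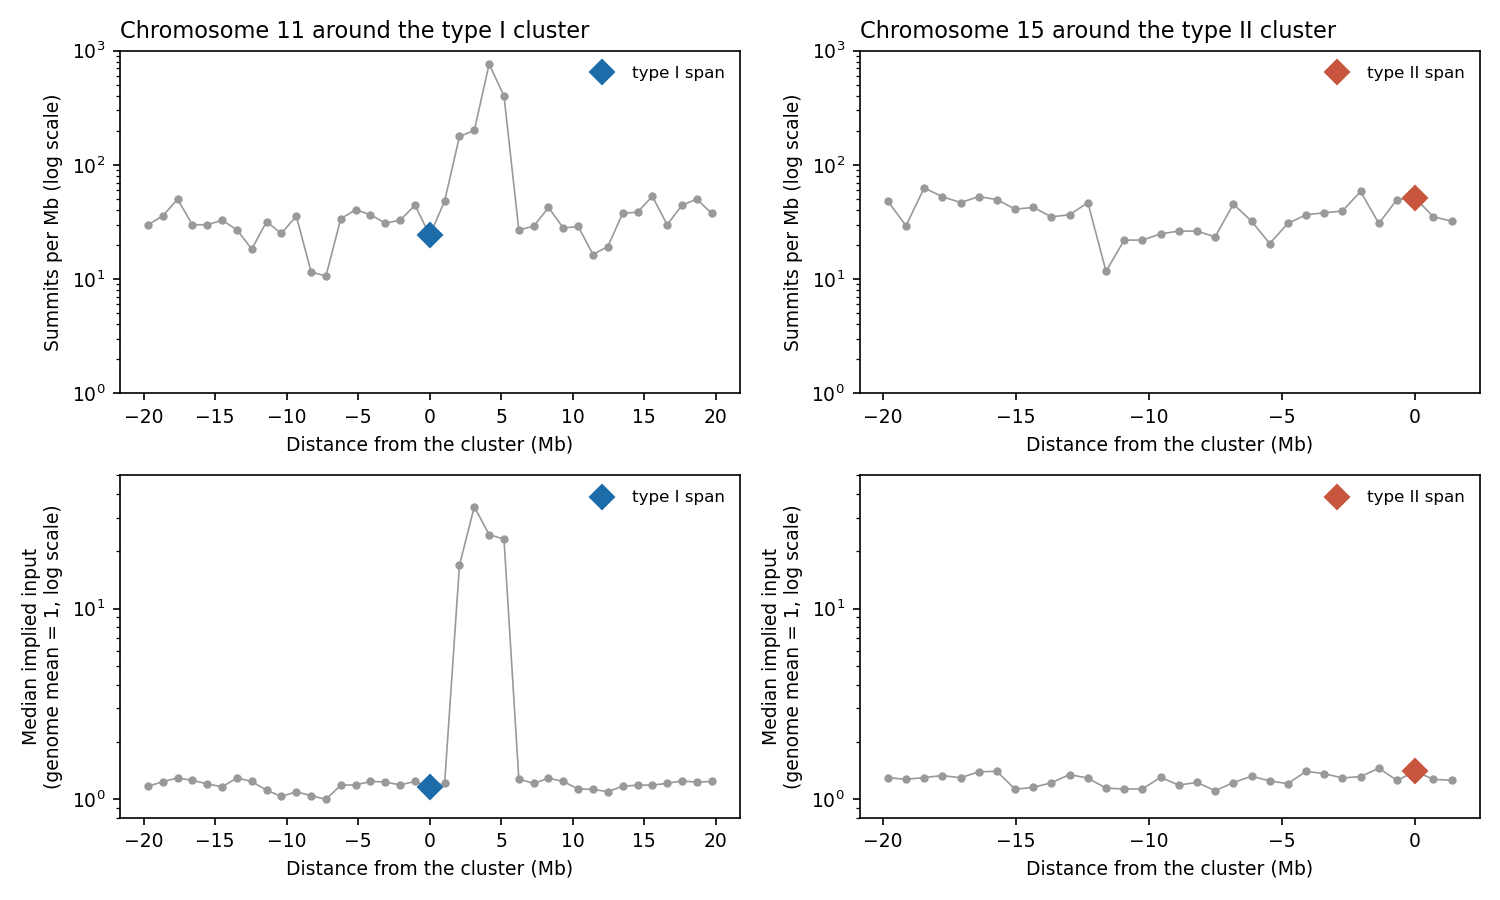
Summit density (upper panels, summits per Mb) and median implied input (lower panels, genome mean = 1) in consecutive windows of the length of each cluster, by distance in Mb from it, on log axes. The type I span (24.1 per Mb) lies below both neighbours (44.4 and 48.2) and next to a block of dense peaks and high input, and the type II span (51.2 per Mb) lies in a part of chromosome 15 with input near the genome mean.

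The density of the type II span was 2.12 times that of the type I span (1.24 to 3.70, exact binomial test, adjusted p = 0.010, over 2 comparisons). Within 5 kb of members alone, where 29 summits fell in 458 kb and 12 in 406 kb, the ratio was 2.14 (1.06 to 4.60, exact binomial test, adjusted p = 0.028). Both tests were added after the keratin values were seen, and the 2 comparisons share summits. Each test takes clumped summits as independent, so its p and interval cover counting error only. The same limits hold for the density ratios of selected peaks below. Chromosome 15 as a whole had 1.44 times the density of chromosome 11, and 2.02 times that of chromosome 11 outside the block. The flanks of the clusters differed the other way, with a ratio of 0.857. The implied input moved with the density: its median at keratin peaks was 1.42 in the type II and 1.17 in the type I cluster. Taken over whole spans, the implied input of the type II cluster was above 28 of its 31 nearby windows and that of the type I cluster above 8 of its 33. The median of chromosome 15, 2.37, was higher than both. The part of the input in the difference between clusters was not tested.

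The ratio of the span densities, 2.12 with all peaks, was lower among peaks of higher fold and higher among peaks of 5 tags or more, with intervals that overlap. The ratios were not tested against each other. Type II peaks had a median fold of 123 (67.2 to 432) and 5 tags, and those of the type I cluster a median fold of 180.0 (94.0 to 598) and 6.5 tags. Among peaks of at least 5 tags the median folds were 203 and 224. Peaks of 3 tags made up 11 of 29 in the type II and 3 of 12 in the type I cluster. Counting only peaks at or above the median fold of the list, both clusters had 11 genes with a summit (42.3% of type II and 40.7% of type I), against 36.4% and 37.0% of the nearby genes of 3 to 15 kb. Genes of this length on the whole of chromosomes 15 and 11 gave 37.8% and 32.9%. The density ratio of the spans was then 1.62 (0.749 to 3.51, exact binomial p = 0.20). Fold divides by the background level from the input, which was higher in the type II cluster. A tag count does not divide by input, though every peak of the list was called against the input. Counting only peaks of at least 5 tags, 14 type II and 8 type I genes held one (53.8% and 29.6%). Genes of 3 to 15 kb on the whole of their chromosomes gave 48.6% and 27.9%. The density ratio was 2.48 (1.11 to 5.82, exact binomial p = 0.021). At 10 tags or more, 5 and 3 genes held one (19.2% and 11.1%, against 25.3% and 13.9%), at a ratio of 1.90 (0.408 to 9.56).

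**Figure D3:**
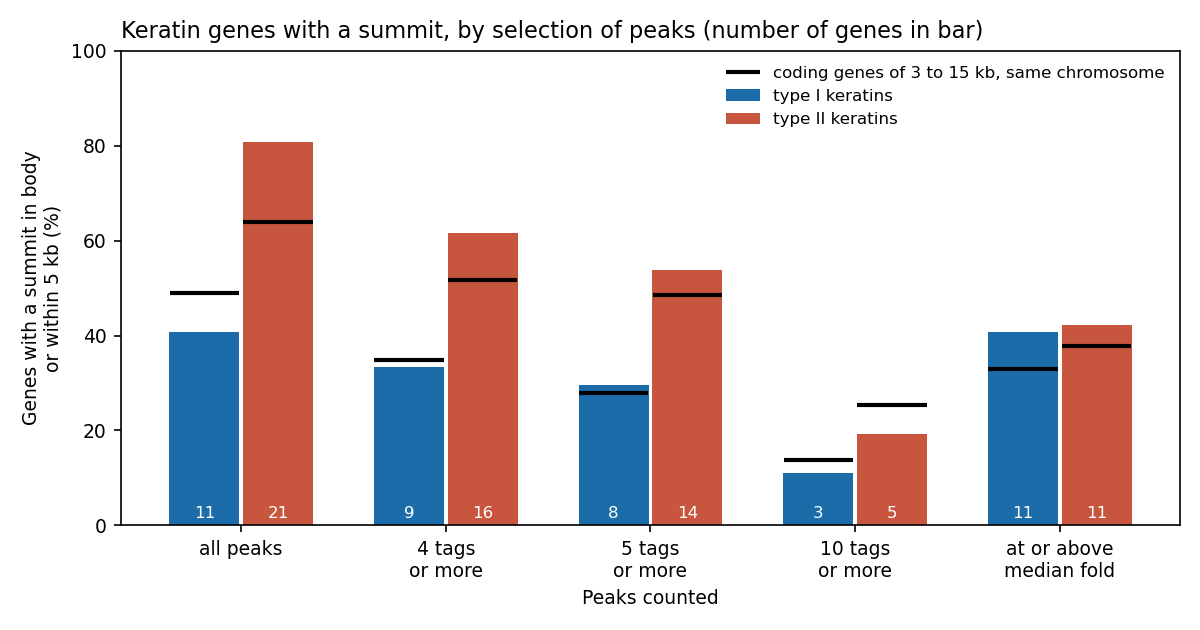
Share of keratin genes with a summit inside them or at most 5 kb away, by cluster, for different selections of peaks, with the number of genes in each bar and the share among coding genes of 3 to 15 kb of the same chromosome as a black line. The clusters differ most with all peaks (40.7% and 80.8%) and are level at or above the median fold (11 genes each).

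**Figure D4:**
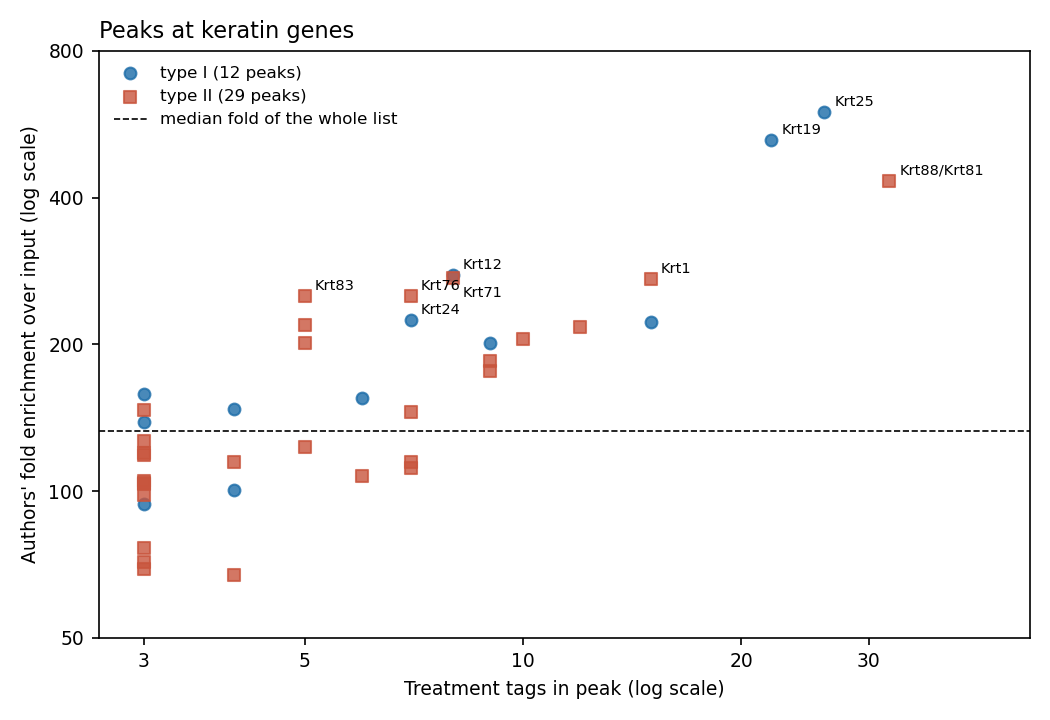
Authors' fold enrichment against treatment tags for the 41 peaks at keratin genes, on log axes, with the median fold of the whole list as a dashed line. The 3 peaks near Krt25, Krt19 and between Krt88 and Krt81 stand above the rest in both values.

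Genes related to keratins were counted in the same way. Among 15 other intermediate filament genes, 9 held a summit (60.0%, median length 9.87 kb), with the highest folds at Synm (253), Lmnb1 (222), Bfsp2 (221) and Des (201). Vim, the mesenchymal filament gene, held none. All 13 genes of the desmosomes and hemidesmosomes that anchor keratin filaments held one, but their median length was 46.2 kb, and longer genes hold summits more often. Their highest folds were at the plakophilins Pkp2 (577, 20 tags) and Pkp3 (566, 16 tags), the hemidesmosome collagen Col17a1 (457, 48 tags) and periplakin, Ppl (417). Pkp3, 12.3 kb long, held 4 summits, while the longer Dsp (47.3 kb), Itgb4 (33.7 kb), Eppk1 (18.7 kb) and Evpl (17.6 kb) held 1 each. Epidermal regulators and partners gave 7 of 12, led by Tchp (520), Grhl3 (332), Grhl2 (290) and Ovol1 (277). The very short Krtap genes inside the type I span gave 5 of 23 (21.7%, median length 0.951 kb). For each list the share in all protein-coding genes, 60.8%, is the background, without a match for length.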

How the data were processed

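The deposited files are 3 lists of the same 77823 peaks, from 1 run of MACS 1.4.4 on a merged treatment and an input with a p cutoff of 1e-05 and a fragment length of 53 bp, per the file headers. Per the submitters' processing notes the build was mm10 (GRCm38); an aligner was not given in the sources used here. Tag counts per peak are whole treatment tags, as deposited. The fold (ratio) and the score (−log10 of the caller's p, times 10) are each peak's own values from the authors' run. The false discovery rate in percent, as deposited, was not used. The summit height is the authors' unscaled signal.

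Summits on chromosomes 1 to 19 and X were matched to genes of the GRCm38.p6 RefSeq table by position (Python 3.11.15, SciPy 1.17.1). The implied input used a genome mean of 0.0167 tags per 53 bp. Genes were tested against 500 kb flanks and clusters against 1 Mb flanks by exact binomial tests with Benjamini-Hochberg adjustment. Only the gene test was checked on simulated data, with summits placed uniformly along each chromosome and so without their clumping. The cluster tests were not simulated. Intervals are 95% and cover counting error only. Alternatives changed the distance (body, 1 kb, 10 kb), the overlap, the peaks counted, the sharing of peaks and the flanks.

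Named genes were the 10 per cluster with the highest fold, the 3 with the most summits, and a fixed set of basal, luminal, wound and epidermal keratins; the rest are given by role. Members, lists and tests were chosen with earlier results of these data known. The test between clusters, the 20 Mb surroundings and the window background were added after the keratin values were seen. No protein sequence was used.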

Additional observations from a re-analysis of the deposited data

How the results depend on the processing

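No paired analysis was possible because each group has 1 library and the peaks come from a single merged list. The count of 32 keratin genes with a summit was 17 in gene bodies alone, 19 within 1 kb and 8 among peaks of at least 10 tags, and stayed within 1.5 times in the other 7 alternatives (22 to 38). The share of type II genes exceeded that of type I genes in all 10 alternatives; the difference of 40.0 percentage points became 8.12 at 10 tags or more and 1.57 at or above the median fold. The type I span stayed sparser than its flanks in all 9 alternatives, with the ratio moving from 0.530 to 0.312 with 2 Mb flanks, which reach into the dense block, but did not pass at 5 tags (10.6 summits per Mb, adjusted p = 0.15), at 10 tags (3.86 per Mb, adjusted p = 0.34) or at the median score (10.6 per Mb, adjusted p = 0.064; exact binomial tests), where fewer summits entered. The type II span passed in none of 9. Its median fold of 123 was 203 among peaks of at least 5 tags and also at or above the median score. The ratio between the spans, 2.12, did not pass at 10 tags (1.90) or at the median fold (1.62). No keratin gene passed against its flanks after adjustment in any of 7 alternatives; the unadjusted p was under 0.05 at 2 genes with 250 kb flanks and at 2 others with 1 Mb flanks. Depth limits all of this: 851227 treatment tags leave most keratin peaks with 2 or 3 tags at the summit.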
